A study of Mus musculus with 24 samples.

Results

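The transcriptome around the uninjured central canal of the adult mouse spinal cord was read on 6 arrays, each from a different sham-operated mouse. They were chosen by their title as ependymal region controls and are all such arrays among the 24 of the study. The mice were CD1 adults aged 3 months that underwent a thoracic laminectomy without needle insertion. The canal region was cut out of sections of the frozen thoracic cord with a laser 3 days after surgery, so each array holds the RNA of a small piece of tissue and not of sorted cells. Arrays of injured mice and of neurosphere cultures were not compared with them here. In tissue of this kind, more cells of a type and more RNA per cell cannot be told apart.

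Ependymal cells form the epithelium that lines the canal, and their motile cilia beat in the cerebrospinal fluid. Below and between them lie radial glia-like astrocytes and neurons that reach the fluid with an apical process. Motile cilia are built from an axoneme of tubulin doublets with dynein arms, radial spokes and a central pair. Their genes are switched on by FOXJ1 and by factors of the RFX family, which bind a palindromic sequence called the X-box.

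Signals were deposited on a log2 scale for single probe sets. For each of 17097 genes, the probe set of highest mean signal over the 6 arrays was taken. Within each array the genes were ranked by signal, and a gene's percentile is the share of genes with a signal at or below its own. A percentile orders signals, which also depend on how well each probe binds, and is not a count of transcripts. For comparison, 134 genes of odorant, vomeronasal and taste receptors, hair keratin-associated proteins and beta-defensins were taken as silent families. The 95th percentile of their signals lay between 5.22 and 6.14 on the log2 scale, which is between the 39.9th and the 50.8th percentile of all genes. A gene above this level on all 6 arrays is called above the silent level below, and 7749 genes were, or 45.3% of all genes read. A further 6545 genes were above it on no array.

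The X-box is shown first because RFX factors are known regulators of the cilia genes described below. The motif searched was the palindrome of GTTGCC and GGCAAC with a spacer of 2 bases, on both strands at once since it reads the same on each, in the 300 bases from 250 before to 50 after each gene's start (RefSeq, GRCm38.p6). With at most 2 of the 12 fixed letters differing, it was found for 26.3% of 133 genes with a promoter in the ependymal, axoneme, intraflagellar transport and basal body lists, and for 4.06% of all 13514 genes with a promoter. The share was 27.1% for 59 axoneme genes and 29.4% for 17 ependymal marker genes. Among lists without cilia genes it was 0% for 18 astrocyte genes and 16 neuronal genes, but 10% for 20 skeletal muscle genes, 10.5% for 19 mitosis genes, 14.3% for 7 genes of histamine and monoamine handling and 6.9% for 29 genes of metal handling and antioxidant defence. In lists this small 1 or 2 matches make these shares. It was 6.09% for the 443 genes in the top 5% of all 6 arrays, so most of the high signals belonged to genes without this match. The limit of 2 letters was chosen after the counts had been seen, and at most 1 differing letter was met by 6.77% of the 133 genes and 1.03% of all. In the 250 bases before the start alone, the shares at 2 letters were 15% and 3.32%. A match in these letters is a description and not a binding site.

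The 6 members of these lists with a match that differs in 1 letter and lies wholly before the start are printed here 5′ to 3′ on the gene's strand, with the matched 14 bases in capitals.
Ccdc153 (chr9:44240512-44240551, +): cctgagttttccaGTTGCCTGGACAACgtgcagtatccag
Ccdc113 (chr8:95534073-95534099, +): taaacagcgttcaGTTGTCTAGGCAAC
Hydin (chr8:110266943-110266976, +): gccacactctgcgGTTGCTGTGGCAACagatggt
Bbs7 (chr3:36613484-36613523, -): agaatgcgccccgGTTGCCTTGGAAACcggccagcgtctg
Ttc26 (chr6:38381478-38381517, +): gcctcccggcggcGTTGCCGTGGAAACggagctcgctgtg
Mks1 (chr11:87853178-87853214, +): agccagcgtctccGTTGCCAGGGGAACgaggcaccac
The Ccdc153 match ends 138 bases before the start and the Bbs7 match 107 bases before it, while the other 4 end within 19 bases of it. Ccdc153 is an ependymal marker of the region, Ccdc113 and Hydin encode axoneme proteins, Bbs7 belongs to the Bardet-Biedl complex, Ttc26 to intraflagellar transport, and Mks1 to the transition zone at the cilium base. All 6 genes were above the silent level, with mean percentiles of 98.1 for Ccdc153, 89.8 for Ccdc113, 84.95 for Hydin, 81.3 for Bbs7, 76.6 for Ttc26 and 60.3 for Mks1.

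The 6 arrays did not resemble each other equally, and this bears on the blood, muscle and neuronal genes below. The log2 difference between replicates 1 and 2 had an SD of 0.169 over probe sets, and that between replicates 3 and 4 an SD of 0.233. For all other pairs it was 0.431 to 0.713. Over genes, Spearman's rho was 0.996 and 0.991 for the first 2 pairs and 0.929 to 0.975 for the others, given as a description. The labels give each array its own mouse, and the likeness of the pairs has no stated source. Signals toward the 3′ and 5′ ends of Gapdh differed by 1.02 and 0.97 in replicates 3 and 4, and by 2.13 to 2.30 on the log2 scale in the other 4. The same difference for actin did not set those arrays apart, with 1.22 and 1.10 in replicates 3 and 4 and 1.09 to 1.47 in the others. The median log2 signal was 5.34 and 5.35 in replicates 1 and 2, and between 4.87 and 4.98 in the others. Replicates 3, 4 and 6 also carried high signals of neutrophil, red cell, muscle and bone genes, given at the end. Without these 3 arrays the mean of the list's median percentile was 96.1 for ependymal cells, against 96.4 over all 6, 91.6 for astrocytes, against 91.8, and 83.1 for neurons, against 79.7. Over all genes the median SD of the percentile across arrays was 3.74 points. A percentile near its upper end has little room to vary, so small SDs of high genes are in part set by the scale.

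The highest signals of the region belonged to tubulins, glial and progenitor genes and a few secreted products, beside genes that every cell uses. Tuba1a, an alpha tubulin gene, had the highest mean percentile, with a signal of 12.84 ± 0.10 on the log2 scale (SD, n = 6). Itm2b, a membrane protein gene of the BRICHOS family, came next at 12.78 ± 0.16, and the alpha tubulin gene Tuba1b after it at 12.68 ± 0.17. The signals of Tuba1a and Itm2b were within their spread of each other. Clu, the secreted chaperone clusterin, ranked 5 at 12.50 ± 0.20, and Ramp2, a partner of the calcitonin receptor-like receptor, ranked 9 at 12.50 ± 0.22. Dbi, the diazepam binding inhibitor of glia, ranked 10, and Vim, the intermediate filament vimentin, ranked 12.

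Markers long used for the ependyma and for neural progenitors stood among these. Cd24a, a surface protein of ependymal cells, had percentiles of 99.84, 99.90 and 99.95 at the lowest, median and highest array, and ranked 13. Sox2, a transcription factor of neural stem cells, lay between 99.77 and 99.88 on all arrays and ranked 22 of 17097 genes, ahead of the gap junction gene Gja1 at 25 and of Id4, an inhibitor of basic helix-loop-helix factors, at 39. Ecrg4, which encodes a secreted peptide precursor of the ependyma and choroid plexus, ranked 24. The adenylate kinase gene Ak7, whose product sits in motile cilia, ranked 46, and the dynein light chain gene Dynll1 ranked 30.

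In all, 85 genes were in the top 1% of every array, and 283 were there on at least 1. Of the 32 genes that are among the 25 highest or the 25 highest outside ribosomal, translation, actin, heat shock and similar families, 12 were read by probe sets whose suffix (x) warns that some probes may bind other transcripts, Tuba1a, Tuba1b, Clu, Dbi, Vim and Gja1 included, and 5 by probe sets shared within a family (s), Ramp2 and Ecrg4 included. Their signals may hold transcripts of other genes. Sox2, Id4 and Fhl1 were read by probe sets with no such mark.

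**Figure D1:**
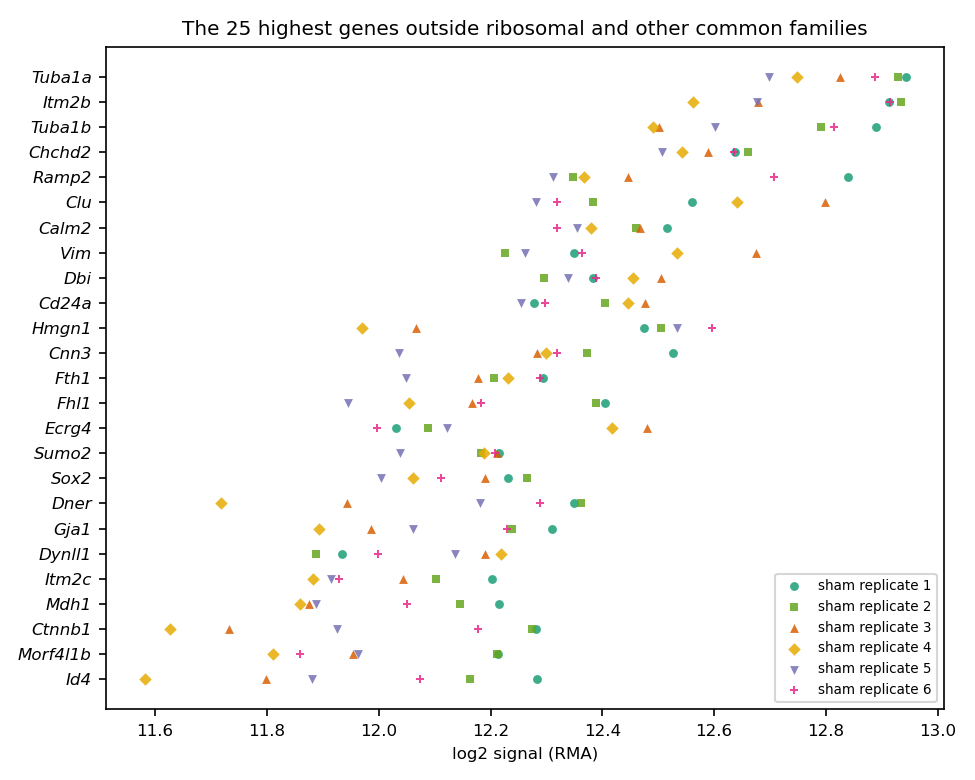
Log2 signal (x axis) of the 25 genes with the highest mean percentile outside ribosomal and other common families, with 1 point for each of the 6 sham arrays. The order of neighbouring genes changes between arrays; Tuba1a is 12.84 ± 0.10 and Itm2b 12.78 ± 0.16 (SD, n = 6).

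The tissue label was checked against ependymal markers. Tmem212, an ependymal membrane protein gene, had percentiles of 98.9, 99.3 and 99.5 at the lowest, median and highest array. Ccdc153, a coiled-coil gene of ciliated ependyma, had 96.8, 98.2 and 98.9. Hdc, which encodes the enzyme that makes histamine, had 95.3, 95.7 and 97.4. Foxj1, the switch of motile ciliogenesis, had 91.7, 93.7 and 96.7. All 4 were above the silent level on every array, and Foxj1 varied most, with 96.5 and 96.7 in replicates 3 and 4 and 91.7 to 94.8 elsewhere.

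Of 22 ependymal genes read, 20 were above the silent level and 10 were in the top 5% of all arrays, against 45.3% and 3.14% of all genes. The median percentile of the list was 95.9, 95.2, 97.6, 97.0, 97.3 and 95.3 in replicates 1 to 6, or 96.4 ± 1.05 (SD, n = 6). Rsph1, a radial spoke head gene, and Fam216b were near the top of the list at 99.4 ± 0.22 and 99.3 ± 0.22. Fam183b, Cfap126 and Calml4, other genes of ciliated cells, followed with means of 98.6, 98.5 and 97.7. The axonemal genes Odf3b and Tekt1 were at 96.3 ± 1.58 and 93.0 ± 2.79, and Zmynd10, needed to assemble dynein arms, at 92.0 ± 2.38. Pltp, a phospholipid transfer protein gene, ran against these, with 88.1 and 87.7 in replicates 3 and 4 and 94.2 to 97.6 in the others. Mia, which encodes a small secreted protein, was uneven the other way, with 99.4 and 99.5 in replicates 3 and 4 and 93.8 to 97.2 elsewhere. Rarres2, the chemerin gene, was uneven, between 66.8 in replicate 6 and 93.7 in replicate 4, and so was Riiad1, at 92.5 in replicates 3 and 4 and 67.8 to 82.8 elsewhere. At the other end, Spag17 was above the silent level on 4 arrays at 45.5 ± 3.58, and Tmem107 on none at 19.2 ± 3.35. Prom1, which encodes the stem cell surface protein CD133, stood at 89.6 ± 1.95.

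**Figure D2:**
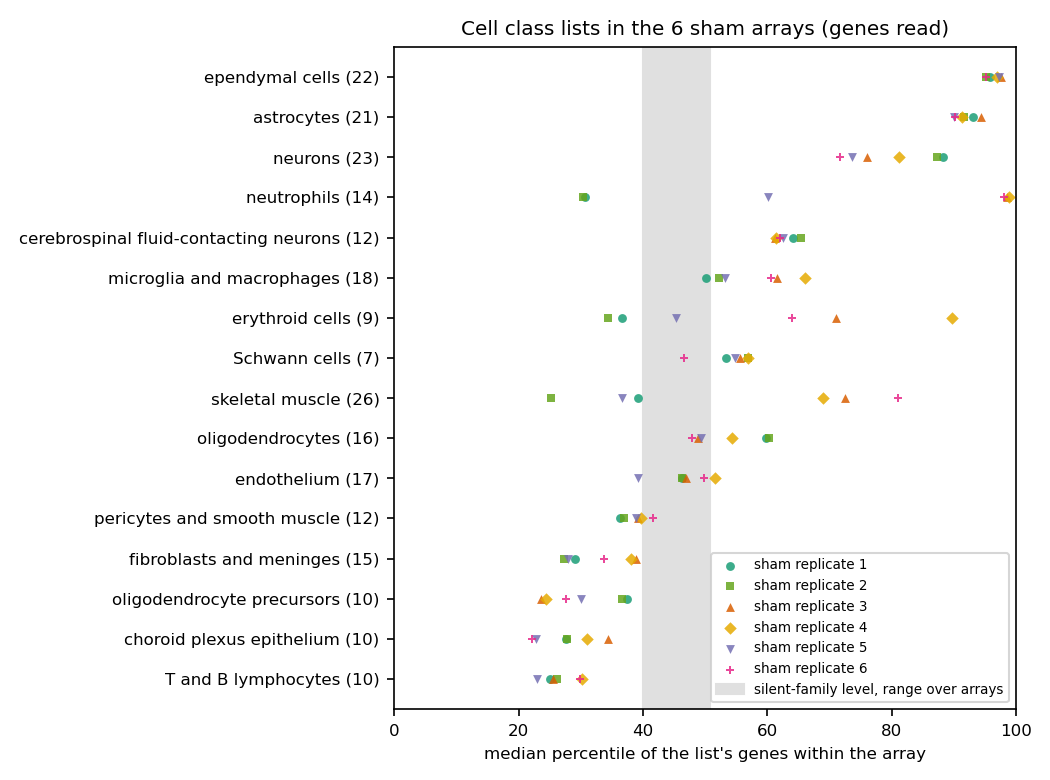
Median percentile within each array (x axis) of the genes of 16 cell class lists (rows, with the number of genes read), 1 point for each of the 6 sham arrays, and in grey the range of the silent-family level. The ependymal and astrocyte lists lie above 90 on all 6 arrays, while the neutrophil, erythroid and muscle lists spread widely between arrays.

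The machinery of motile cilia was read at high signal almost throughout. Of 69 axoneme genes, 61 were above the silent level, 5 on some arrays and 3 on none, and the list's median percentile was 88.1 ± 1.88 (SD, n = 6). The 61 genes are 88.4% of the list, against 45.3% of all genes above the level. After Ak7 and Rsph1, the highest were Cfap54, a central pair gene, at 98.6 ± 0.51, Enkur at 98.3 ± 0.45, Drc3 of the nexin-dynein regulatory complex at 97.5 ± 0.85, the radial spoke head gene Rsph4a at 97.4 ± 0.99, Cfap52 at 97.3 ± 0.70 and Cfap43 at 97.0 ± 0.42. Among dynein heavy chains, Dnah6 stood highest at 95.8 ± 1.39, and Dnah11, Dnah2 and Dnah9 were between 91.7 and 93.1. The 3 genes above the silent level on no array were Dnah1, Dnah8 and Spag6, at 24.6, 24.2 and 0.23. Spag6l, the close relative of Spag6 that serves the central pair in mouse, was at 95.5.

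The transport system that builds cilia was as broadly present. Of 35 genes read for intraflagellar transport or the Bardet-Biedl complex, 33, or 94.3%, were above the silent level, against 45.3% of all genes. The list median was 85.2 ± 2.34 and lay between 81.3 in replicate 6 and 88.0 in replicate 3. Ift80 led with 95.8 ± 1.12, followed by Ift81, Ift122 and Ift57, all but Ift122 parts of the anterograde IFT-B particle. Their means lay between 94.1 and 95.8, closer than the SD of Ift81, which was 2.15. The exceptions were Kif3b, a motor subunit above the level on 5 arrays, and Hspb11, which encodes the IFT25 subunit, at 0.91, on none.

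Basal body and centriole genes stood lower as a list, with 22 of 33 above the silent level and a median of 68.5 ± 1.27. This share was 66.7%, against 45.3% of all genes. The centrins Cetn2 and Cetn4 reached 99.2 ± 0.19 and 96.8 ± 0.47, and Cep83 of the distal appendages 89.6 ± 0.79. Deup1, which in multiciliated cells drives the mass production of centrioles, was above the silent level on 1 array at 41.8 ± 3.69. The duplication genes Plk4, Sass6, Stil and Cep152 stood between 35.8 and 49.2. Of the tubulins, Tubb4b, the beta tubulin of axonemes, was at 99.1 ± 0.20.

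Among regulators of ciliogenesis, 12 of 14 genes, or 85.7%, were above the silent level, against 45.3% of all genes. After Foxj1 came Rfx4 at 93.1 ± 1.29 and Rfx3 at 90.6 ± 2.73, and these means differed by less than the SD of Rfx3. Trp73, which acts above Foxj1 in multiciliated cells, was at 64.9 ± 5.40, and E2f4 and Foxn4 were above the level on no array. The list also holds Tppp3 and Fank1, at 97.3 and 95.6, which mark ciliated cells. Rfx2, a further RFX factor, stood at 68.2.

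**Figure D3:**
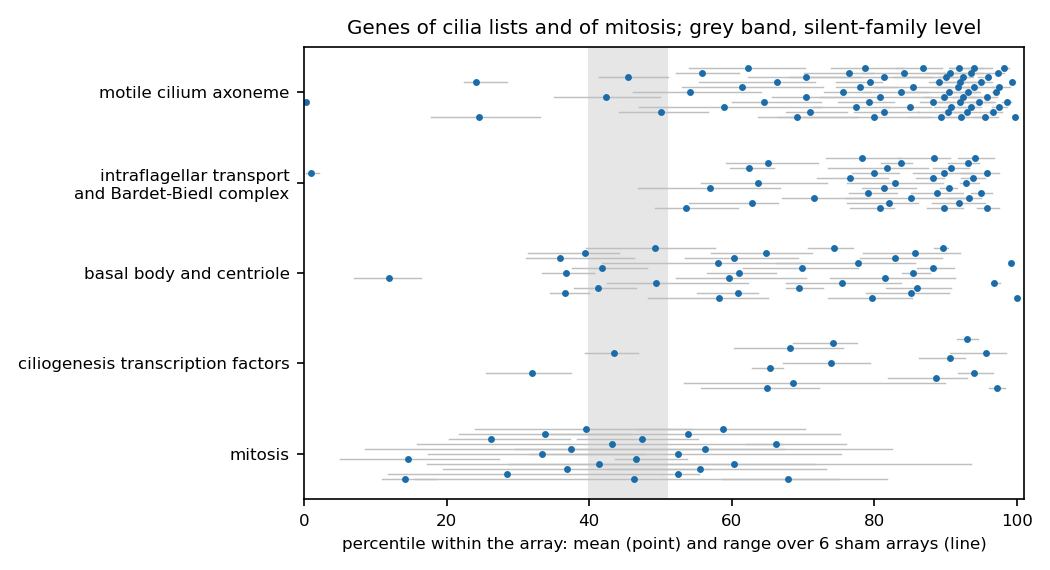
Percentile within the array (x axis) of each gene of 4 cilia lists and of the mitosis list: the point is the mean and the line the range over the 6 sham arrays, and the grey band is the range of the silent-family level. Most axoneme and transport genes lie right of the band with short lines, 61 of 69 and 33 of 35 above it on all arrays, while mitosis genes lie on both sides of it with long lines. Over all genes the share above the silent level on all arrays was 45.3%.

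Genes that mark neural progenitors and position along the cord were above the silent level about as often as other genes. Of 55 progenitor and dorsoventral factors, 29 were above it on all arrays, or 52.7% against 45.3% of all genes, and 22 on no array. Beside Vim, Sox2 and Id4, the nuclear factor Nfix was at 98.3 ± 0.74. The dorsoventral factors Pax6, at 70.5 ± 2.96, and Nkx6-1, at 68.9 ± 8.26, were above the silent level on all arrays. Shh and the progenitor filament gene Nes were below it on all, at 2.94 ± 1.11 and 13.3 ± 4.75. Of 34 Hox genes, 16 were above it, or 47.1%, led by Hoxc8 at 93.8 ± 1.99, Hoxb3 at 85.3 ± 2.66, Hoxd8 at 83.7 ± 3.38 and Hoxa7 at 83.4 ± 2.21. Among the genes toward the caudal end of the clusters, Hoxa11, Hoxa13, Hoxb13, Hoxc13, Hoxd10, Hoxd11, Hoxd12 and Hoxd13 were above it on no array.

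By the mean over the 6 arrays, the astrocyte list had the highest median after the ependymal list. On replicates 3, 4 and 6 the neutrophil list, given at the end, was above both. Of 21 astrocyte genes, 17, or 81.0%, were above the silent level, against 45.3% of all genes. The median of the astrocyte list was 91.8 ± 1.68. Beside Clu and Gja1, the membrane protein gene Mlc1 was at 98.8 ± 0.57 and Aldoc, a glycolytic enzyme of astrocytes, at 98.8 ± 0.41. Of the defining markers, the water channel gene Aqp4 lay between 97.4 and 98.0. This holds for the probe set used, which was at 98.3 ± 0.18 among all probe sets, while the other probe sets of Aqp4 were at 75.4 ± 10.5 and 57.1 ± 5.00. Gfap, the astrocyte filament gene, was uneven. It was lowest in replicates 3 and 4, at 74.6 in replicate 3, and lay between 81.8 and 91.7 in the others. These values too hold for the probe set used, which had a mean of 87.5 among all probe sets. The other probe sets of Gfap were lower, with means of 59.1 and 49.7. Aldh1l1 was above the silent level on no array, at 33.1 ± 11.6. The glutamate transporter genes Slc1a2, at 43.1 ± 6.85, and Slc1a3, at 27.8 ± 2.40, were also low on the probe sets that name them, 2 and 1 in number. Several members of this list, such as Clu, Gja1, Apoe and S100b, are shared by ependymal cells and astrocytes.

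Neuronal genes came next by the mean over arrays, and unevenly. Neutrophil genes were higher on replicates 3, 4 and 6, erythroid genes on replicate 4 and muscle genes on replicate 6. The neuronal list's median was 88.3 and 87.3 in replicates 1 and 2, 76.0 and 81.2 in replicates 3 and 4, and 73.6 and 71.7 in replicates 5 and 6. Of its 23 genes 19, or 82.6%, were above the silent level, against 45.3% of all genes. Snap25, of the synaptic release machinery, stood at 98.1 ± 1.14, the neurofilament gene Nefl at 94.3 ± 3.43 and the nuclear marker Rbfox3 at 80.6 ± 6.77. Slc6a5, the glycine transporter gene of inhibitory neurons, had 91.2 and 91.3 in replicates 1 and 2 against 46.6 to 59.3 in the other 4. Neurons that contact the cerebrospinal fluid were marked by the channel gene Pkd2l1 at 97.3, 98.2 and 98.7 in the lowest, median and highest array. Gad1, which makes GABA, was at 97.9 ± 1.05, the vesicular transporter gene Slc32a1 at 87.9 ± 4.96 and Gata2 at 75.1 ± 3.10, while Pkd1l2 was above the silent level on no array. Of this list's 12 genes, 6 were above it, which is near the share of 45.3% of all genes. Gad1 is on the neuronal list too. Pkd2l1, Gad1 and Slc32a1 were all highest in replicates 1 and 2, as the neuronal list was.

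Oligodendrocyte genes were above the silent level about as often as other genes, with 7 of 16, or 43.8% against 45.3%. Mbp, a myelin protein gene, was at 96.7 ± 1.37 and Cnp at 85.7 ± 2.31, but Mog was above the level on no array. Precursor genes were lower still, 2 of 10 above it, with Pdgfra at 20.6 ± 3.48 and Gpr17 at 19.1 ± 5.63. Microglia and macrophages had 9 of 18 genes above the level, also near the share of all genes. There the protease gene Ctss was at 97.8 ± 0.41 and Cx3cr1 at 73.0 ± 3.42, and the resting microglia genes P2ry12 and Tmem119 were above it on 4 arrays each, at 46.2 ± 4.56 and 48.8 ± 4.07. Sall1, a transcription factor of microglia that neural progenitors also use, was at 93.6 ± 1.35.

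Vessel and connective tissue lists were near or below the background share. Of 17 endothelial genes 6 were above the silent level, of 12 genes of pericytes and smooth muscle 3, and of 15 genes of fibroblasts and meninges 2, which is between 13.3% and 35.3% of each list, against 45.3% of all genes. The endothelial markers Cldn5, Pecam1 and Cdh5 were above it on no array, at 34.8 ± 7.68, 21.0 ± 3.49 and 26.3 ± 1.22. The endothelial receptor gene Kdr was at 71.8 ± 4.29. Ly6c1, shared by vessels and myeloid cells, had 93.3, 94.6 and 95.8 in replicates 3, 4 and 6, and 61.4 to 64.0 in the others. Pdgfrb, the pericyte receptor gene, and Col1a1, of fibrillar collagen, were above the level on no array. Acta2, the smooth muscle actin gene, was at 89.5 ± 3.02, and Rgs5 was above the level on 5 arrays. Dcn, the decorin gene, was even at 94.5 ± 1.28, while Col3a1 had 83.8, 80.4 and 80.0 in replicates 3, 4 and 6 and 29.8 to 58.5 in the others. The glucose transporter gene Slc2a1, which is on the endothelial list and also serves glia, stood apart at 98.7 ± 0.53. Of 10 choroid plexus genes, only Folr1 was above the level on all arrays, at 84.3 ± 4.52, and the defining Ttr and Kl were above it on none. Of 7 Schwann cell genes 4 were above it, including Mbp, Pmp22 and Drp2, while Egr2 was above it on none. None of 10 lymphocyte genes was above it on all arrays, and Cd3e and Cd79a were above it on none.

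The solute carriers, the largest family of membrane transporters, were no more often above the silent level than other genes, with 141 of 339, or 41.6% against 45.3%. The members were all genes whose symbol starts with Slc or Slco. Of the 10 highest, 5 belong to the mitochondrial carrier family: the adenine nucleotide carriers Slc25a4 at 99.2 ± 0.31 and Slc25a5 at 98.5 ± 0.20, the phosphate carrier Slc25a3 at 99.1 ± 0.17, Slc25a39 at 96.5 ± 1.52 and Slc25a46 at 95.1 ± 3.41. The other 5 lie mainly at the cell surface. Slc38a1, a glutamine transporter, was at 98.9 ± 0.12 and Slc2a1, for glucose, at 98.7 ± 0.53. Slc39a12, a zinc transporter, was at 97.1 ± 0.62, Slc14a1, for urea, at 96.4 ± 0.83, and Slc15a2, for small peptides, at 95.4 ± 2.46. Slc15a2 and Slc25a46 were the least even, both lowest in replicates 3 and 4.

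Water and ion transport rested on few genes. Aquaporins, potassium channels, ABC transporters and carbonic anhydrases were each above the silent level less often than all genes, of which 45.3% were. Of 11 aquaporins only Aqp4 was above the silent level on all arrays, and Aqp1, the channel of red cells and choroid plexus, had 32.4, 30.1, 74.97, 91.2, 42.9 and 73.1 in replicates 1 to 6. Of 68 potassium channel genes 17 were above the silent level, and Kcnj10, the inward rectifier of glia, led at 98.1 ± 0.30, followed by Kcnd3 at 89.8 ± 3.74 and Kcnk1 at 86.5 ± 1.82. Kcnj16, whose product pairs with that of Kcnj10, was at 81.5 ± 3.60. Beta subunit genes of the sodium pump were high, with Atp1b2 at 98.4 ± 0.34, Atp1b1 at 97.5 ± 1.95 and Atp1b3 at 96.2 ± 0.59. Atp2a2, the calcium pump of the endoplasmic reticulum, was at 98.1 ± 1.04. Of 38 ABC transporters 9 were above the level, led by the peroxisomal Abcd3 at 93.6 ± 3.16, Abca5 at 90.8 ± 5.41 and Abcg1, a sterol exporter gene, between 84.1 and 90.6. Abcc5 was at 81.3 ± 3.14. Among 16 carbonic anhydrases 2 were, Car3 at 89.3 ± 7.28 and Car2 at 88.3 ± 8.59. Both carbonic anhydrases varied with the arrays that carried muscle and red cell signals, a link that was not tested. Car3 had 95.8, 95.2 and 95.8 in replicates 3, 4 and 6 and 79.9 to 86.7 in the others. Car2 is itself on the red cell list of 9 genes, so its likeness to that list is in part given. Slc12a2, the sodium, potassium and chloride cotransporter, lay between 84.5 and 92.9 and Slc4a4, for bicarbonate, at 92.8 ± 1.94.

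**Figure D4:**
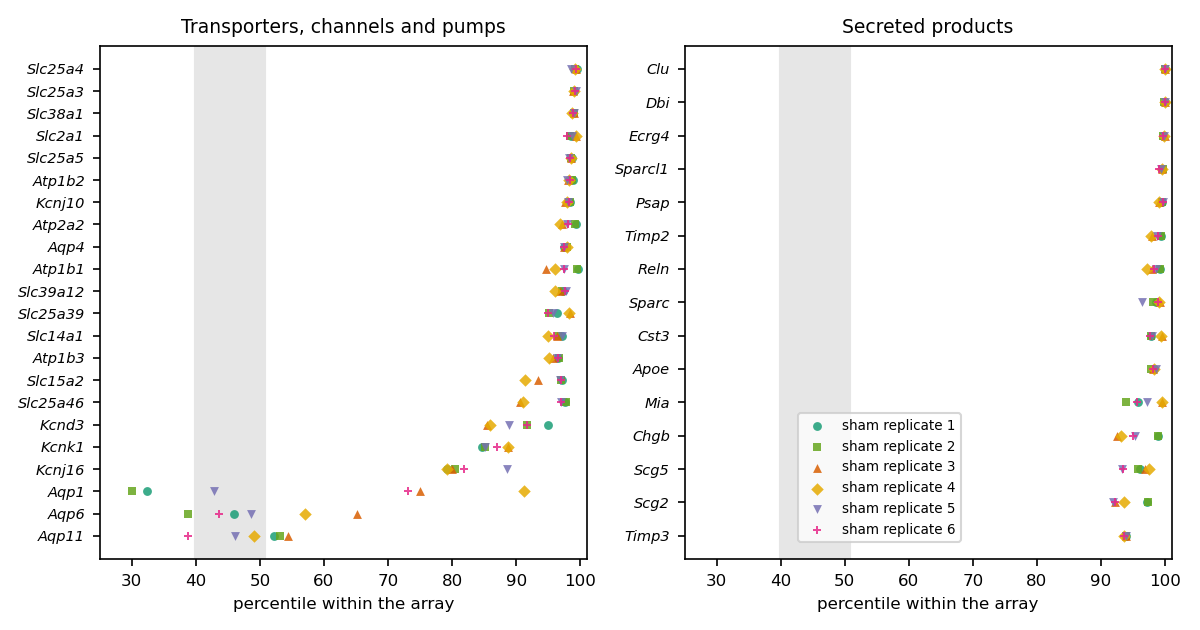
Percentile within the array (x axis) of the highest solute carriers, aquaporins, potassium channels and ion pumps (left) and of the 15 highest secreted products (right), 1 point for each of the 6 sham arrays, with the range of the silent-family level in grey. Aqp4, the 1 aquaporin above the band on all arrays, stays between 97.4 and 98.0, while Aqp1 spreads from 30.1 to 91.2.

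Secreted products showed a small group of very high signals over a background like that of other genes. Of 115 genes read, 52 were above the silent level, or 45.2% against 45.3% of all genes. In the top 5% of every array were 10 of the 115, a larger share than the 3.14% of all genes. The highest were Clu, Dbi and Ecrg4, with percentiles of 99.71 or more on every array. Sparcl1, a matrix protein that shapes synapses, followed at 99.5 ± 0.19, and Psap, the precursor of the saposins, at 99.4 ± 0.30. Timp2, an inhibitor of metalloproteinases, was at 98.7 ± 0.66, the migration signal Reln at 98.4 ± 0.72, Sparc at 98.4 ± 1.07, the protease inhibitor Cst3 at 98.3 ± 0.87 and the lipid carrier Apoe at 98.2 ± 0.27. These 5 means lie within an SD of their neighbours.

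Some secreted products moved with other signs between arrays. Mia was highest in replicates 3 and 4, at 99.4 and 99.5, and so was Cst3, at 99.5 and 99.4. The granins Chgb and Scg2, cargo of neuronal vesicles, were highest in replicates 1 and 2, where the neuronal list was highest, with 98.96 and 98.85 for Chgb. Timp3 was even, between 93.5 and 94.0. The morphogen Shh, listed here too, was below the silent level on all arrays, and Ttr, the choroid plexus product, likewise.

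Genes of energy supply and of protection from metals and oxidation were high as lists. Of 84 respiratory chain genes 76 were above the silent level, with a median of 91.5 ± 3.06, and Atp5h and Atp5g3 of the ATP synthase were highest. The list stood at 95.3 and 95.7 in replicates 3 and 4 and at 89.2 to 89.9 in the others. Of 17 glycolytic genes 15 were above the level, with a median of 95.3 ± 1.68, led by Gapdh and Aldoa. Of 32 genes of metal handling and antioxidant defence 27 were above it, with a median of 92.6 ± 2.22. There the iron store Fth1 ranked 19 and the metallothionein Mt1 49, and Txn1 was at 99.2 ± 0.22 and Gstp1 at 98.3 ± 0.86. Lipid synthesis had 20 of 25 genes above the level, with Elovl5 at 98.1 ± 1.22 and Scd1 at 95.9 ± 1.14. The share above the level was 90.5% for respiratory chain and 88.2% for glycolytic genes. It was 84.4% for metal handling and antioxidant defence and 80.0% for lipid synthesis, against 45.3% of all genes.

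Hormone and amine handling was read in single genes. Of 23 genes of retinoid and thyroid hormone handling 8 were above the silent level, with the thyroid hormone receptor gene Thra at 92.4 ± 1.498 and Rdh10, which oxidises retinol, at 89.1 ± 1.98. Beside Hdc, the amine list held Aldh2 at 90.8 ± 5.34, Maob, which degrades monoamines, at 89.0 ± 2.04, and Ddc, which makes amines from amino acids, at 78.0 ± 5.41. Of 47 junction genes 25 were above the level, led by Gja1, Ctnnb1, Ctnna1 and Fzd3. Of 44 matrix genes 17 were, led by Sparcl1, Sparc and Dag1. Of 14 interferon and antigen presentation genes 5 were, led by the class I genes H2-D1 at 93.2 ± 3.48 and H2-K1 between 85.1 and 95.6, both highest in replicates 3 and 4. Of 20 immediate early genes, which respond to surgery and handling in many tissues, 12 were, with Jund at 97.7 ± 0.52 and Jun at 89.4 ± 1.57. The share above the level was 34.8% for retinoid and thyroid, 38.6% for matrix and 35.7% for interferon genes, against 45.3% of all. It was 53.2% for junction genes and 60.0% for immediate early genes.

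The lists that differed most between the arrays were those of blood, muscle and dividing cells. The median of 14 neutrophil genes was 30.7, 30.4, 98.5, 98.8, 60.1 and 98.1 in replicates 1 to 6, that of 9 erythroid genes 36.6, 34.3, 71.1, 89.6, 45.2 and 63.9, and that of 26 skeletal muscle genes 39.3, 25.2, 72.6, 69.0, 36.7 and 81.0. S100a8, an abundant protein of neutrophil cytoplasm, had log2 signals of 4.34 and 4.43 in replicates 1 and 2, 12.69 and 12.71 in replicates 3 and 4, 8.74 in replicate 5 and 12.07 in replicate 6. Lcn2, the neutrophil lipocalin gene, had percentiles of 7.41, 7.24, 99.1, 99.1, 55.6 and 97.8 in replicates 1 to 6. For both genes replicate 5 lay between the low and the high arrays. Hba-a1, an alpha globin gene, had log2 signals of 7.14, 7.31, 12.64, 13.02, 8.43 and 11.08 in the same order of replicates, and Alas2, of heme synthesis in red cell precursors, had percentiles of 30.8, 34.2, 63.5, 78.7, 35.0 and 63.9. Acta1, the skeletal muscle actin gene, had percentiles of 81.9, 28.6, 97.0, 96.8, 65.1 and 98.8. The muscle myosin gene Myh4 split arrays that were otherwise alike, with log2 signals of 8.03 and 4.04 in replicates 1 and 2 and 8.46 and 3.92 in replicates 3 and 4, and was highest in replicate 6 at 10.92.

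Genes of bone were added after their values had been seen. Ibsp, the bone sialoprotein gene, had percentiles of 27.9, 2.01, 61.4, 59.6, 53.6 and 96.2 in replicates 1 to 6, and the collagenase gene Mmp13 12.04, 3.85, 84.4, 79.5, 46.3 and 98.9. The median of 10 bone genes was highest in replicate 6 at 87.3, with 37.0 to 68.2 elsewhere, and that of 7 platelet genes was 25.6, 22.8, 66.6, 77.7, 32.5 and 75.2. The median of 23 mitosis genes was 33.7, 31.0, 55.3, 67.0, 27.0 and 54.4, and the proliferation marker Mki67 had 33.7, 28.8, 85.2, 93.6, 30.1 and 90.7. The mitosis genes were thus higher on replicates 3, 4 and 6, where the neutrophil and bone medians were also higher, and whether they came from the ependyma was not tested. Tpx2, Cenpf and Prc1 were the 3 mitosis genes above the silent level on all arrays. Ccnd2, a cyclin also used outside division, was even at 98.0 ± 0.34.

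Of the 100 genes with the largest range among those above the silent level on at least 3 arrays, 10 are on the neutrophil list, 10 on the muscle list, 4 on the erythroid list and 6 on the mitosis list. These lists hold 14, 26, 9 and 23 of the 17097 genes read. None of the 100 is on the ependymal, axoneme or astrocyte list, which hold 22, 69 and 21 genes. The smallest range among the 100 was 47.2 points, which a gene high on all arrays cannot reach. In lists this small few or no genes would be among the 100 in any case, so their absence does not show evenness. Of these 100 genes, 47 were highest in replicate 4 and 33 in replicate 6, and 51 were lowest in replicate 2 and 26 in replicate 1. The 15 genes with the largest range were Mmp13, Lcn2, Ibsp, Myh4, Ear3, Ppbp, S100a8, Cybb, Chil3, Camp, Dmp1, Tnnt3, Hp, F13a1 and Cd177, mostly genes of granulocytes and monocytes, muscle, bone and platelets. The range was a criterion of their choice and is given as a description.

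**Figure D5:**
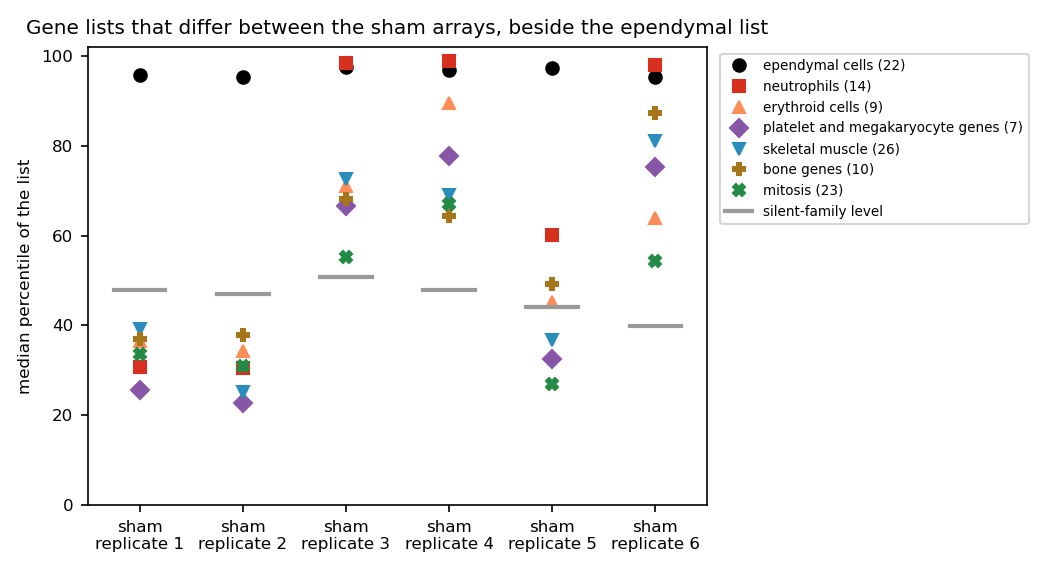
Median percentile (y axis) of 6 lists that differ between arrays and of the ependymal list, for each sham array (x axis), with the silent-family level as a grey bar. The ependymal list stays between 95.2 and 97.6 while the neutrophil list runs from 30.4 to 98.8. The bone and platelet lists were chosen after their values had been seen.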

How the data were processed

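RNA of the central canal region was labelled and hybridised to Affymetrix mouse arrays. The authors made log2 signals of single probe sets with RMA and deposited these (background correction, normalization across arrays, summary of the probes). The submitters' processing notes also name Affymetrix Expression Console 1.2.1. From the 45141 probe sets, 104 controls were left out, and of the rest 28898 name 1 gene, 551 several and 15588 none. Gene names are those of the array's annotation table, and 15 listed symbols were read through an older or newer name. The arrays give no depth, so their number limits the precision.

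Percentiles, medians over lists and counts were computed with pandas 2.3.3 in Python 3.11.15, and each error is the SD over arrays. No group was compared, and the only test was Dixon's for a single far array. Percentile, level and motif search were tested on simulated data. The text names the 4 ependymal markers, the 25 highest genes, the 25 highest outside common families, the highest 4 of each of 41 lists (10 of solute carriers, 15 of secreted products, 8 of the axoneme), the defining markers of cell classes and the 15 genes with the largest range. Members and lists were chosen with earlier results of these data known, and other list members (Slc6a5, Rarres2, Prom1, Pax6, Rfx3, the dynein heavy chains, the genes below the silent level and others) were named with their values in view. The injured arrays served only the alternative that chose probe sets over 12 arrays, and the neurosphere arrays were not used here. Promoters came from RefSeq (GRCm38.p6), matched by Entrez identifier for 13514 of 17097 genes.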

Additional observations from a re-analysis of the deposited data

Results flagged for a closer look

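For 271 list medians and named genes the farthest of the 6 arrays was set against the others by Dixon's ratio at its 95% critical value. It was passed by 11, and with 6 independent arrays chance alone passes about 1 in 20. In 10 of them the far array was replicate 5 or 6. Replicates 1 and 2, and 3 and 4, are so alike that none of these can easily stand alone, so neither the 1 in 20 nor the place of the far arrays can be taken at face value. No explanation was weighed.

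The median of the Schwann cell list was 46.587 in replicate 6, below 53.4 to 57.0 in the others, and that of the immediate early genes was 52.963 in replicate 5, below 58.5 to 60.6. Tuba1a stood at 99.977 in replicate 4, below 99.994 or more elsewhere, a gap of a few ranks. Slc25a4, the adenine nucleotide carrier gene, was lowest in replicate 5 at 98.544, against 99.2 to 99.4.

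The other genes were highest in 1 array. In replicate 5 these were Hdc, the histamine enzyme gene, at 97.444 against 95.3 to 96.0, and the potassium channel gene Kcnj16 at 88.600 against 79.1 to 81.9. In replicate 6 they were the protease gene Ctss at 98.620 against 97.4 to 97.8, the collagen gene Col5a2 at 92.987 against 74.8 to 80.0, and the interferon-induced gene Ifi27 at 82.810 against 66.01 to 69.6. Mylk, of the pericyte and smooth muscle list, at 78.487 against 52.9 to 60.9, and the B cell gene Cd79a, at 32.316 against 21.9 to 25.5, were also highest there. Cd79a was below the silent level on all arrays, replicate 6 included, where signals have no reliable order. Replicate 6 was the array with the highest medians of the skeletal muscle and bone lists, and the part of such tissue in these values was not tested.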

How the results depend on the processing

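Without 1 array, the genes above the silent level were 7753 to 8052, and those in the top 1% of all arrays 87 to 88. Without replicates 3, 4 and 6 the top 1% held 132 genes, against 85 over all 6, fewer arrays having to concur. List medians were then 40.4 for neutrophils, against 69.4, 38.7 for erythroid cells, against 56.8, and 33.7 for skeletal muscle, against 54.0. With the 99th percentile of the silent families as the level, 4197 genes were above it, against 7749, since the level itself is higher. Averaging replicates 1 and 2, and 3 and 4, chosen after seeing the data, gave 7988 genes above the level and 90 in the top 1%. A mean over a part of the same arrays cannot move far from the mean over all, so small moves of list medians under these settings show no stability.

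Ranked among all probe sets, of which many name no gene, 35 of 41 list medians moved by more than their SD. Those of the cell classes became 97.561 for ependymal cells, 94.740 for astrocytes, 87.213 for neurons, 75.447 for cerebrospinal fluid-contacting neurons, 68.498 for oligodendrocytes, 43.567 for their precursors, 71.432 for microglia and macrophages, 62.237 for endothelium, 53.653 for pericytes and smooth muscle, 46.584 for fibroblasts and meninges, 69.046 for Schwann cells, 40.567 for choroid plexus and 39.581 for lymphocytes. With the mean of a gene's probe sets, the medians were 97.948 for ependymal cells, 85.288 for astrocytes, 60.413 for oligodendrocytes, 64.843 for microglia and macrophages, 35.554 for pericytes, 59.111 for Schwann cells and 22.945 for lymphocytes. This choice also moved 147 of 230 named genes by more than their SD.

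Replicates 1 and 2 alone gave 87.784 for neurons, 64.782 for cerebrospinal fluid-contacting neurons, 59.996 for oligodendrocytes, 37.012 for their precursors, 36.603 for pericytes and 30.533 for neutrophils. Replicates 3 and 4 alone gave 24.016 for oligodendrocyte precursors, 63.871 for microglia and macrophages, 38.426 for fibroblasts, 80.365 for erythroid cells and 32.678 for choroid plexus, and replicates 5 and 6 alone 22.485 for choroid plexus. The cause of these moves was not tested.

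Leaving out 1 array, the median lay between 96.1 and 96.6 for ependymal cells, 91.3 and 92.1 for astrocytes, 78.0 and 81.3 for neurons, 63.5 and 77.2 for neutrophils, 50.2 and 61.3 for erythroid cells, and 48.6 and 59.7 for skeletal muscle. No paired analysis was possible because 1 group is described and its values come from no test. Signals near the silent level have no reliable order, and a gene below it may be expressed at a level these probes do not separate from background.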

Other observations

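A few genes outside every list stood close to the top of the region and were chosen after their values had been seen. Tm4sf1, a membrane protein gene of the tetraspanin-like L6 family, ranked 50 at 99.6 ± 0.22 (SD, n = 6), App, the amyloid precursor protein gene, ranked 51, and Zfp36l1, which encodes an RNA-binding protein that destabilises transcripts, ranked 53. Adamts20, a secreted metalloproteinase gene, ranked 55, at 99.6 ± 0.35, and was lowest in replicate 4 at 98.97. Of the listed genes, Sox9, a transcription factor of glia and progenitors, was at 80.8 and 81.6 in replicates 2 and 1 and between 88.5 and 91.2 in the others. The vessel gene Plvap, absent from barrier vessels, was above the silent level on no array, at 23.2 ± 7.75.

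The numbered pairs that were alike among the sham arrays were also the most alike among the 6 arrays of injured mice. There the log2 difference had an SD of 0.259 between replicates 1 and 2, 0.314 between 3 and 4 and 0.350 between 5 and 6, and of 0.479 to 0.744 in the other pairs.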
